A study of Rattus norvegicus with 16 samples.

Results

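Chemokines, interleukins and the receptors of both were examined across 16 RNA sequencing libraries of the rat sciatic nerve. The members were chosen by gene symbol alone. They are the 124 of 31038 genes in the tables whose symbol is Ccl, Cxcl, Ccr or Cxcr with a number, Il with a number and at most 1 letter, or Il with a number followed by r. By role these are 32 chemokine ligands, 15 chemokine receptors, 36 interleukins and 41 genes named as interleukin receptors. The symbol rule also takes in Il1rn, which encodes a secreted antagonist of the interleukin 1 receptor, and it leaves out relatives with other names such as Cx3cl1 and Il6st. Ccr2, the main receptor for Ccl2, was not analysed here. The question asked of the data was which of these genes are expressed by purified Schwann cells and which by the other cells of the nerve, before and after injury.

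Chemokines are small secreted proteins that draw leukocytes along a gradient through receptors coupled to G proteins. Interleukins signal through paired receptor chains, which in the main families engage either Jak and Stat proteins or the adaptor Myd88 and NF-kappaB. After an axon is cut off from its cell body the distal nerve degenerates, Schwann cells, the glia of peripheral nerve, convert to a repair state, and macrophages enter to clear myelin debris. Ccl2 is the best known chemokine of that macrophage entry, and the interleukin 6 and interleukin 1 families are known from the same setting.

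Each of the 8 groups held 2 libraries, replicates 1 and 2, and each sample pooled at least 10 nerves. These were purified Schwann cells or whole nerve, each from uncrushed sciatic nerves and from nerves 3, 5 and 7 days post-crush, with the crush made at postnatal day 18. Only nerve distal to the crush was used, uncrushed nerves came without sham surgery, and the labels give postnatal day 18 for every sample, so that injury and any difference in age at collection cannot be told apart. Schwann cells were purified acutely by immunopanning, in which cells of the dissociated nerve pass over dishes that hold back CD45 positive leukocytes and Thy1 positive fibroblasts before a dish against the O4 antigen keeps the Schwann cells. Whole nerve was taken without dissociation, so every comparison of the tissues also compares dissociated and panned cells with intact tissue. Nothing states that the 2 samples of a group came from separate operations or dissections, and p-values measure only the spread between these samples. In both tissues, fewer cells of a type and less RNA per cell cannot be told apart.

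Library totals lay between 10555067 and 27562637 expected counts. The label of the Schwann cell samples was checked against markers. Levels are given as FPKM (fragments per kilobase of gene, scaled to the fragments of the library). The summed level of 10 Schwann cell markers before crush was 17655 and 17994 FPKM in Schwann cells and higher, at 34824 and 43016 FPKM, in whole nerve. After crush it was 4675 to 10167 FPKM in Schwann cells and 2803 to 7345 FPKM in whole nerve. Every marker was detected in the Schwann cell groups. Of 14 marker lists of other cells, 12 summed to less in every Schwann cell library than in any whole nerve library. The exceptions were the 4 B cell markers, near 0 in both, and the 4 dendritic cell markers, at 3.66 and 3.76 FPKM in uncrushed Schwann cells and 1.58 and 1.54 FPKM in uncrushed whole nerve. The 7 neutrophil markers summed to 0 in 3 Schwann cell libraries, and the 5 perineurial markers to 58.0 to 119 FPKM in Schwann cells against 152 to 283 FPKM in whole nerve. The 15 macrophage and monocyte markers summed to 9.55 to 26.8 FPKM in 7 of the 8 Schwann cell libraries and to 79.8 FPKM in replicate 2 of day 3, against 505 to 3112 FPKM in whole nerve. The 10 fibroblast markers summed to 1344 and 1608 FPKM in uncrushed Schwann cells, 309 to 471 FPKM in Schwann cells after crush and 6875 to 8903 FPKM in whole nerve. The 18 immediate-early genes, which dissociation of tissue is known to raise, summed to 6560 and 7468 FPKM in uncrushed Schwann cells, 2241 to 2916 FPKM in Schwann cells after crush and 184 to 390 FPKM in whole nerve. The part that these cells or the dissociation play in the values of the members was not tested.

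**Figure D1:**
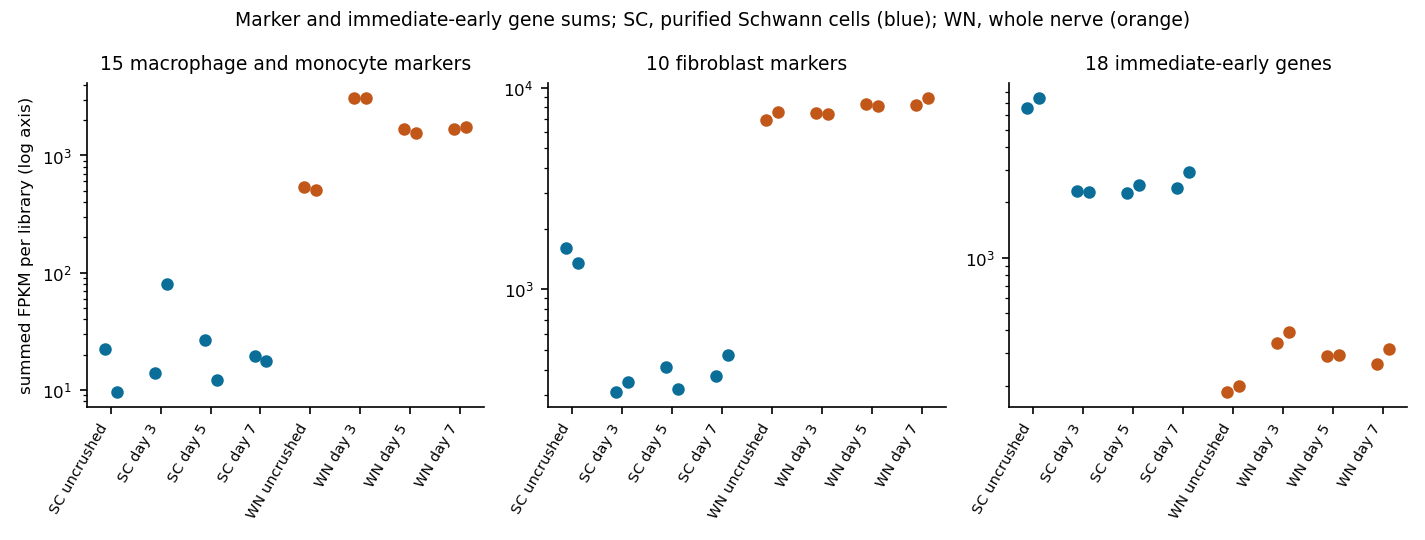
Summed FPKM (y axes, logarithmic) of the macrophage and monocyte markers, the fibroblast markers and the immediate-early genes in each of the 16 libraries by group (x axes), 1 point a library, blue for purified Schwann cells and orange for whole nerve. Replicate 2 of Schwann cells at day 3 stands above the other Schwann cell libraries in macrophage markers at 79.8 FPKM, and both uncrushed Schwann cell libraries stand above the later ones in fibroblast markers and immediate-early genes.

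To show the regulatory sequence beside the expression, the 250 bases before the start of 5 chemokine genes are given 5′ to 3′ from RefSeq, build GRCr8. In Schwann cells Cxcl1 and Cxcl2 exceeded whole nerve at every time, Cxcl10 fell in Schwann cells while it rose in whole nerve, Cxcl14 rose in both, and Cxcl12 was a ligand of the other nerve cells. Capitals mark matches on either strand to fixed letters. These are GGG, any pair of bases and TTTCC, called the NF-kappaB core here, or TGANTCA, the core of an AP-1 site. NF-kappaB sites of other letters are neither marked nor counted, and no capitals stand in Cxcl12. The regions are chr14:17479322-17479571 on the minus strand for Cxcl1, chr14:17467256-17467505 on the minus strand for Cxcl2, chr14:15988816-15989065 on the plus strand for Cxcl10, chr17:8322900-8323149 on the plus strand for Cxcl14 and chr4:152060531-152060780 on the plus strand for Cxcl12.
Cxcl1: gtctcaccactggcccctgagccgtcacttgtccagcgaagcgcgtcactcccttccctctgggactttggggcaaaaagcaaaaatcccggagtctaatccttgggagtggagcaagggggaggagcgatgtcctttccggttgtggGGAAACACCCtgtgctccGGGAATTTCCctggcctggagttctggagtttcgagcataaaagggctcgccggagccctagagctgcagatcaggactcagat
Cxcl2: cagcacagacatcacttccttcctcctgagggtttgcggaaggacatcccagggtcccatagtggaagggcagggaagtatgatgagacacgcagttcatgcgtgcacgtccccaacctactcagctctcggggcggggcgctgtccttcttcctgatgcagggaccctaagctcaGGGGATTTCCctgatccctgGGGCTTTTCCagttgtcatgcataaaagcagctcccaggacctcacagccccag
Cxcl10: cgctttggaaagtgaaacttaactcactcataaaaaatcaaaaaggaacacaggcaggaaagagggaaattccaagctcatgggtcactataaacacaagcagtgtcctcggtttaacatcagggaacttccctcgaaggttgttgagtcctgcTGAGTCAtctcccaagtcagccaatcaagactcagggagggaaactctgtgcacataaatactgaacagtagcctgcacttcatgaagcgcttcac
Cxcl14: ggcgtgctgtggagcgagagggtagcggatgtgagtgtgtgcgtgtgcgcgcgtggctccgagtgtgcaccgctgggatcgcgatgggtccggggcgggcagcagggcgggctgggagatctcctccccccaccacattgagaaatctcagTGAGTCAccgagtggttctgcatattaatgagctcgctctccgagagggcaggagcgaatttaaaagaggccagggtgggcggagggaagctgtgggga
Cxcl12: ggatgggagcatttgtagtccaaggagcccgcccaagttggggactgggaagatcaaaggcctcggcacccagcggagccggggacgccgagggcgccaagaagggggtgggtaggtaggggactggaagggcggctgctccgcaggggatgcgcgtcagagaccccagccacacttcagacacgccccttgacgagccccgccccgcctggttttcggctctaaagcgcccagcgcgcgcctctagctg
Cxcl1 held matches to the NF-kappaB core at bases 102 to 93 and 84 to 75 before its start, and Cxcl2 held matches at bases 74 to 65 and 54 to 45. Cxcl10 held the AP-1 core at bases 96 to 90 and Cxcl14 at bases 99 to 93. Of 27457 genes with such a sequence in the table, 376 (1.37%) held the NF-kappaB core and 1918 (6.99%) the AP-1 core. Among the 94 members with an entry the counts were 10 and 12. Of the 14 members with an entry called higher in Schwann cells before crush, 3 held the NF-kappaB core, in Cxcl1, Cxcl2 and Il6, and 4 held the AP-1 core, in Ccl7, Cxcl10, Cxcl14 and Il16. Of the 29 with an entry that were lower, 2 held the NF-kappaB core, in Cxcl6 and Il1rn, and 0 held the AP-1 core. A match describes the letters and not the binding of a factor, and a gene without a match can hold NF-kappaB sites of other letters.

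Schwann cells expressed a small part of the family. At a mean of 1 FPKM or more stood 26 members in uncrushed Schwann cells (21% of 124), 26 at day 3, 29 at day 5 and 27 at day 7 (21, 23.4 and 21.8%), while 37.3 to 39.1% of all genes reached that level there. In whole nerve 41 members reached it before crush (33.1%) and 56, 51 and 49 after (45.2, 41.1 and 39.5%), beside 39.2 to 41.6% of all genes. Among chemokine receptors Cxcr4 alone reached 1 FPKM in Schwann cells, at all 4 times, against 4 receptors in each whole nerve group. For chemokine ligands the counts were 8 to 11 of 32 in Schwann cells and 15 to 22 in whole nerve, for interleukins 4 to 6 and 6 to 9 of 36, and for interleukin receptor genes 10 to 13 and 16 to 22 of 41. No library held a count for 10 members, and 82 members reached 10 counts in at least 1 library.

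Schwann cells were compared with whole nerve at each time by edgeR on the expected counts of all 16 libraries, in which 77 members had enough counts to be tested among 16829 genes. In uncrushed nerve 16 members were higher in Schwann cells and 37 lower, where 29.1% and 35.3% of all genes tested were (64.4% in either direction). At day 3 the counts were 8 higher and 52 lower (background 24.5% and 32.8%, 57.3% in all), at day 5 they were 6 and 51 (background 23.2% and 28.4%, 51.7% in all), and at day 7 they were 5 and 47 (background 22.4% and 28.7%, 51% in all). Without replicate 2 of day 3 in Schwann cells, the total called at day 3 was 53 in place of 60. Passing the filter through whole nerve alone makes a member lower in Schwann cells by selection, so these counts describe the tested members and not the 124. Cxcl1, Cxcl2, Il17rb and Il1rap were higher in Schwann cells at all 4 times, Cxcl14 and Il3ra at 3 times, and Il12rb2 and Il17rd in uncrushed nerve and at day 3. Ccl3, Cxcl3, Il1rapl1 and Il6 were higher 1 time, Ccl3 at day 3 and the others before crush. Ccl2, Ccl7, Cxcl10, Il16 and Il4r were higher in Schwann cells before crush and lower at 1 or more of the days after it. For Il4r the call before crush rests on counts, since its FPKM overlapped (2.52 and 1.98 in Schwann cells, 1.92 and 2.00 in whole nerve). At all 4 times 34 members were lower in Schwann cells, as were 18.5% of all genes tested, and 15 of the 34 had at most 10 counts in every Schwann cell library. The members higher at all 4 times compare with 11.9% of all genes. A further 7 members were called at no time, including Il17rc, which read 1.99 to 3.03 FPKM in Schwann cells and 1.86 to 3.33 FPKM in whole nerve.

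**Figure D2:**
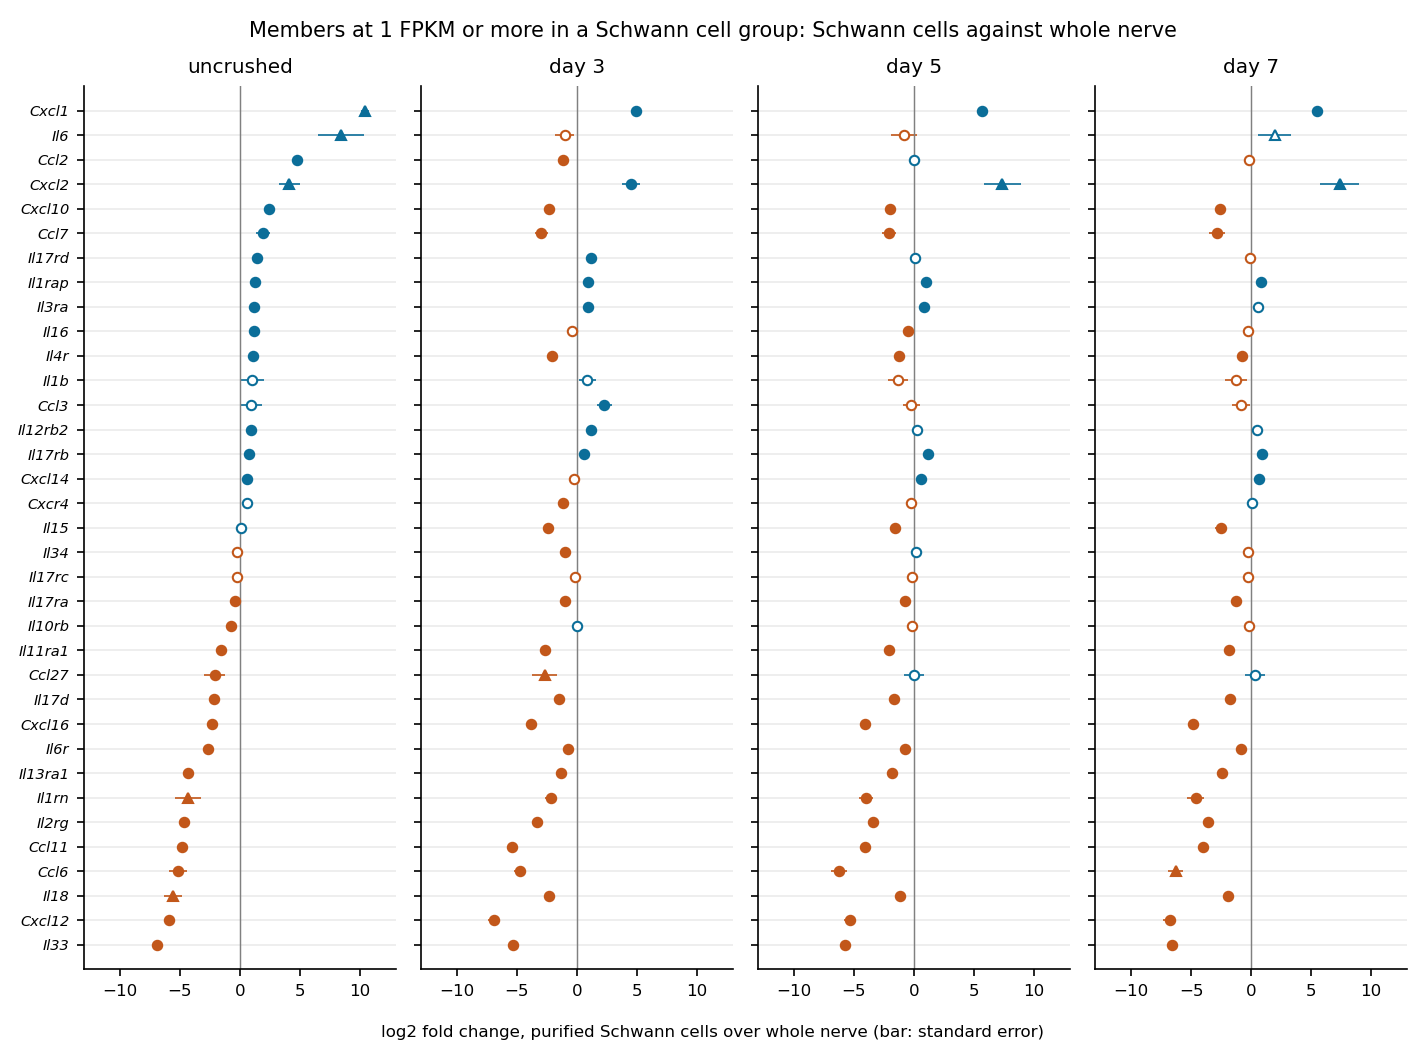
Log2 fold change of Schwann cells over whole nerve (x axis, standard errors as bars) at the 4 times for the 35 members at 1 FPKM or more in a Schwann cell group, blue above 0 and orange below, filled where called, and as triangles where a group was at the floor of 3 counts, so that the position is no measured fold. Cxcl1 and Cxcl2 lie above 0 at every time, Ccl2, Ccl7, Cxcl10 and Il4r go from above 0 before crush to 0 or below after it, and Cxcl12 and Il33 lie far below 0 throughout.

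Cxcl1, a ligand of Cxcr2 that draws neutrophils, was the most abundant member in uncrushed Schwann cells and had few counts in intact nerve. It read 569 and 543 FPKM in uncrushed Schwann cells and then 38.2 and 53.5 at day 3, 34.5 and 31.2 at day 5, then 25.4 and 33.1 at day 7. In whole nerve it read 0.26 to 2.04 FPKM, from 3 to 31 counts per library. The 2 tissues did not overlap, and Schwann cells after crush lay well under the uncrushed ones. On the log2 scale Cxcl1 fell in Schwann cells by 3.55 (SE 0.183, adjusted p = 3.33e-07) at day 3, by 4.12 (SE 0.189) at day 5 and by 4.31 (SE 0.192) at day 7. Schwann cells exceeded whole nerve by a log2 fold change of 4.96 at day 3 (SE 0.248, adjusted p = 8.36e-10), 5.66 at day 5 and 5.50 at day 7, and in uncrushed whole nerve both libraries held 3 counts, too few for a fold. The immediate-early genes fell beside it, 14 of 18 at day 3 with a median log2 fold change of -1.87 in Schwann cells, where they were also higher than in whole nerve (18 of 18 before crush, median 4.79, and 17 of 18 at day 3, median 2.25). Cxcl2, a related neutrophil ligand, read 4.75 and 3.03 FPKM in uncrushed Schwann cells and then 1.81 and 8.26 at day 3 and 1.23 to 1.78 at the later days. Whole nerve held 1 to 5 counts per library of Cxcl2 before crush and at day 3 and 0 at days 5 and 7, which makes Schwann cells at least 6.88-fold higher at day 5 and at least 5.89-fold higher at day 7. Cxcl3 stayed at or below 1.51 FPKM in every library.

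Ccl2, Ccl7 and Cxcl10 formed a set that was higher in Schwann cells before crush and moved in opposite directions in the tissues. Ccl2 read 514 and 456 FPKM in uncrushed Schwann cells and then 202 and 291 at day 3, 259 and 172 at day 5, then 108 and 152 at day 7. Whole nerve read 12.7 and 16.2 FPKM before crush, 489 and 640.4 at day 3, 205 and 210.2 at day 5, then 155 and 118 at day 7. Every crushed Schwann cell library lay below both uncrushed ones, and every crushed whole nerve library lay above both uncrushed ones. Ccl2 fell in Schwann cells by 0.93 on the log2 scale at day 3 (SE 0.24, adjusted p = 0.00902), by 1.21 at day 5 and by 1.96 at day 7 (SE 0.249), while in whole nerve its log2 fold change was 4.90 at day 3 (SE 0.196, adjusted p = 2.95e-08), 3.45 at day 5 and 2.85 at day 7. Without replicate 1 of day 3 the Schwann cell change at day 3 was -0.71 (adjusted p = 0.0597). The level in Schwann cells over that in whole nerve went from a log2 fold change of 4.78 (SE 0.284) before crush to -1.16 (SE 0.227, adjusted p = 0.00055) at day 3, and was not called at days 5 and 7 (0.00 and -0.14).

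Ccl7, which shares receptors with Ccl2, read 21.7 and 22.3 FPKM in uncrushed Schwann cells and 1.47 to 9.60 after crush, and rose in whole nerve from 4.66 and 4.74 FPKM to 32.4 and 67.0 at day 3. Its log2 fold changes at days 3, 5 and 7 were -1.79, -2.58 and -3.38 in Schwann cells and 3.00, 1.29 and 1.22 in whole nerve. The Schwann cell call at day 3 (SE 0.619, adjusted p = 0.034) was lost with DESeq2 and without either uncrushed library or replicate 1 of day 3 (-1.17), and the log2 fold change was -3.30 without replicate 2. The Schwann cell call at day 5 was lost without replicate 2 of that day (-1.93, adjusted p = 0.0553), and those in whole nerve at days 5 and 7 were lost without either uncrushed library (1.21 to 1.31), at day 5 also without either library of that day (1.23 and 1.37) and at day 7 without replicate 1 of that day (0.85). Cxcl10, a ligand of Cxcr3 that interferons induce, read 41.3 and 28.6 FPKM in uncrushed Schwann cells and 5.08 to 7.69 after crush. In whole nerve it read 7.31 and 2.40 FPKM before crush and 22.1 to 37.9 after. Its log2 fold changes were -2.39 (SE 0.223, adjusted p = 1.6e-05), -2.65 and -2.52 in Schwann cells and 2.27 (SE 0.31), 1.73 and 2.44 in whole nerve, where the day 5 value was 2.81 without replicate 1 of uncrushed nerve. All 3 ligands were thus at their highest in Schwann cells in the uncrushed libraries, the same libraries in which fibroblast markers and immediate-early genes were highest. Markers of other cells were highest there as well, with sums of 38.7 and 51.3 FPKM for 6 genes of pericytes and smooth muscle (8.75 to 18.7 after crush), 115 and 119 FPKM for 5 of perineurial cells (58.0 to 66.9 after crush), 5.5 and 6.69 FPKM for 7 of endothelial cells (1.19 to 4.55) and 3.66 and 3.76 FPKM for 4 of dendritic cells (0.46 to 0.80). Their part in these values was not tested.

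Cxcl14 was the chemokine ligand that rose in Schwann cells at all 3 days. This ligand of a less defined receptor read 5.54 and 6.83 FPKM in uncrushed Schwann cells and then 24.4 and 27.1 at day 3, 36.6 and 32.8 at day 5, then 32.9 and 33.8 at day 7. Whole nerve read 3.67 and 2.59 FPKM before crush, 28.3 and 36.1 at day 3, 22.4 and 20.9 at day 5, then 18.1 and 21.5 at day 7. All crushed libraries lay above all uncrushed ones in both tissues. The log2 fold change at day 3 was 2.11 in Schwann cells (SE 0.153, adjusted p = 2.95e-06) and 2.93 in whole nerve (SE 0.188), and at day 7 it was 2.39 and 2.22. Schwann cells exceeded whole nerve by 0.64 on the log2 scale before crush, 0.63 at day 5 and 0.69 at day 7 (SE 0.156, adjusted p = 0.00189), and the difference of -0.28 at day 3 was not called. The call before crush was lost without replicate 2 of Schwann cells (0.46) or of whole nerve (0.44). It was also lost when only the 4 libraries of that time were fitted (0.67, edgeR adjusted p = 0.0678).

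Replicate 2 of Schwann cells at day 3 decides several values of that group. Among 50 members with at least 10 counts in either day 3 library, 20 (40%) were more than 3-fold higher in replicate 2 and 0 in replicate 1, while 3.66% and 0.819% of 14895 genes were. In the other 7 groups 0 to 13.9% of members differed that far in either direction. Replicate 2 of day 3 was the deeper library, at 27562637 against 15806398 expected counts, so a member with few counts could enter through it alone. Of the 20 members, Ccl3, Ccl7, Cxcl2 and Il1rn had 10 or more counts in replicate 1 as well, and the others had fewer. The share of 40% therefore describes the members that entered, most of them with low counts. The macrophage marker sum was 13.9 FPKM in replicate 1 and 79.8 FPKM in replicate 2. The sum of 6 mast cell markers was 10.6 and 21.1 FPKM, against 1.99 to 6.79 FPKM in the other Schwann cell libraries, and that of 7 neutrophil markers was 0 and 1.19 FPKM, against 0 to 0.31 FPKM. Their part in these values was not tested. Ccl3, a macrophage chemokine, read 4.06 FPKM in replicate 1 and 28.4 FPKM in replicate 2, against 1.54 to 4.31 FPKM in the other 6 Schwann cell libraries. Its log2 fold change at day 3 was 2.74 (SE 0.779, adjusted p = 0.0145) with both replicates and 0.71 (adjusted p = 0.357) without replicate 2, and over whole nerve at day 3 it was 2.28 with both and 0.24 (adjusted p = 0.73) without. These calls were also lost without replicate 2 of uncrushed Schwann cells (2.27) and without replicate 1 of whole nerve at day 3 (2.09). Il1rn read 0.62 and 2.7 FPKM, Il1b 1.64 and 4.57 FPKM and Ccl6 0.81 and 9.44 FPKM in the same pair. In each of these 4 genes the higher value of the group came from that 1 library.

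**Figure D3:**
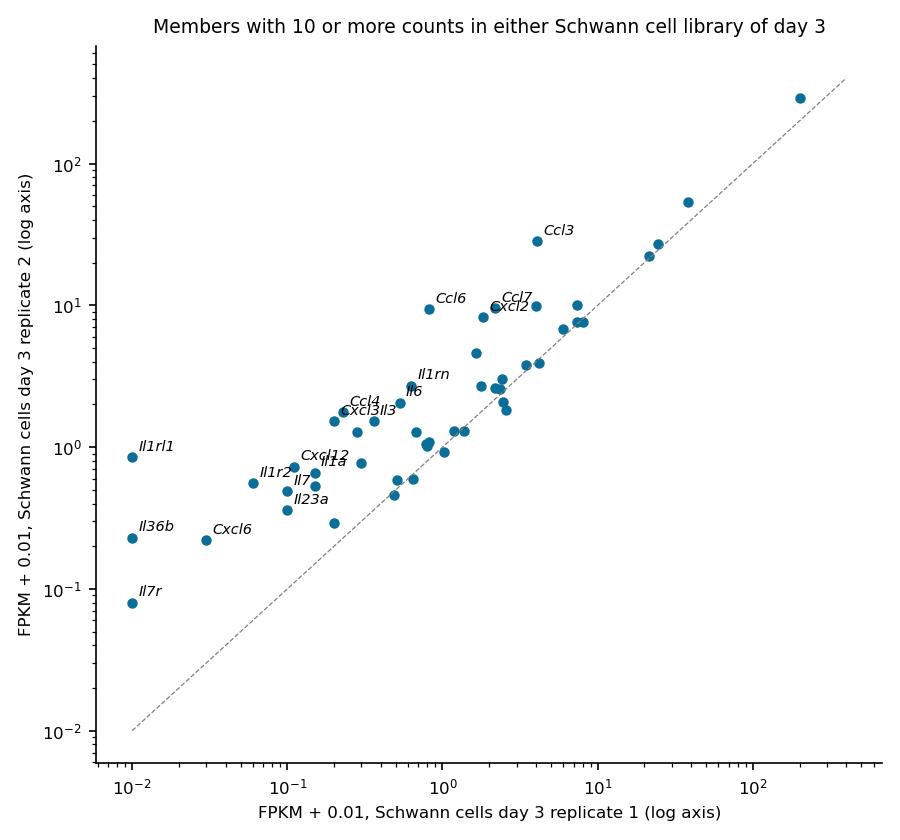
FPKM plus 0.01 of the 50 members with 10 or more counts in either library, in replicate 1 (x axis) and replicate 2 (y axis) of Schwann cells at day 3, on log axes with equality as the dashed line. More than 3-fold higher in replicate 2 are 20 points, of which most are named, and 0 points are that much higher in replicate 1.

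Of the 26 chemokine ligands tested against whole nerve, 7 were higher and 12 lower in Schwann cells before crush (29.1% and 35.3% of all genes were), 3 and 19 at day 3 (24.5% and 32.8%), 3 and 17 at day 5 (23.2% and 28.4%), and 3 and 16 at day 7 (22.4% and 28.7%). Here too a ligand could pass the filter through whole nerve alone and be lower by selection. Ccl4 was called at no time, and Ccl27 and Cxcl6 were lower before crush and at day 3 alone. Ccl6, a myeloid chemokine, read 27.7 and 27.8 FPKM in uncrushed whole nerve, 161 and 157 at day 3, 86.4 and 82.8 at day 5, then 108 and 92.6 at day 7, and 0 to 1.79 FPKM in 7 Schwann cell libraries. It rose in whole nerve by a log2 fold change of 2.13 at day 3 (SE 0.148, adjusted p = 1.41e-06). Ccl11, the eosinophil ligand eotaxin, rose there from 14.3 and 11.9 FPKM to 41.2 and 44.2 at day 3 (log2 fold change 1.29, SE 0.184), and read 0.20 to 2.17 FPKM in Schwann cells. Cxcl9, which like Cxcl10 is induced by interferon, read 5.25 and 4.40 FPKM in uncrushed whole nerve and 37.3 and 40.8 at day 7 (log2 fold change 2.58, SE 0.252), and with 0 counts in Schwann cells at days 5 and 7 was at least 47.7-fold and 71.9-fold lower there. Cxcl9 and Cxcl10, which signal through the same receptor, thus differed in Schwann cells before crush, with 0.59 and 0.43 FPKM of Cxcl9 beside 41.3 and 28.6 FPKM of Cxcl10. Cxcl16, a membrane chemokine, rose in whole nerve at each day (0.78, 0.60 and 1.34 on the log2 scale, the day 5 call lost without replicate 2 of uncrushed nerve or replicate 1 of day 5, at 0.51 and 0.48) and was 0.38 to 1.5 FPKM in Schwann cells, where no day was called.

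Cxcl12, the ligand of Cxcr4, read 57.5 and 47.4 FPKM in uncrushed whole nerve, 67.0 and 66.1 at day 3, 57.7 and 49.1 at day 5, then 37.5 and 35.0 at day 7, and 0.10 to 2.74 FPKM in Schwann cells. Its fitted log2 fold changes in whole nerve were -0.40, -0.52 and -0.97. At days 3 and 5 the sign is the opposite of that of the mean FPKM, which was 52.5 before crush, 66.5 at day 3 and 53.4 at day 5. The TMM scaling factors of this fit were 0.811 and 0.808 in the uncrushed whole nerve libraries and 1.06 to 1.09 after crush. They enter the fold change of every gene in whole nerve after crush. For Cxcl12 none of the 3 calls was kept when all 16 libraries shared a fit (-0.33, -0.43 and -0.87). The day 3 call was also lost without replicate 1 of uncrushed nerve (-0.24) or either library of day 3 (-0.38 and -0.40). Ccl21, a ligand of Ccr7 made by lymphatic vessels, read 19.7 to 47.5 FPKM in whole nerve with no day called, and with 0 counts in uncrushed Schwann cells and at day 7 was at least 95.4-fold and 88.3-fold lower there. Ccl24 read 7.74 to 18.7 FPKM in whole nerve, likewise with no day called. Ccl5 and Ccl20 had 0 counts in all 8 Schwann cell libraries, and Ccl17, Ccl22 and Ccl9 had at most 5 counts in any of them. In whole nerve Ccl17 and Ccl22 had 0 counts before crush and rose at each of the 3 days, Ccl20 was called at day 3 alone (1.24 and 4.35 FPKM), and Ccl5 reached 4.38 and 3.71 FPKM at day 7.

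**Figure D4:**
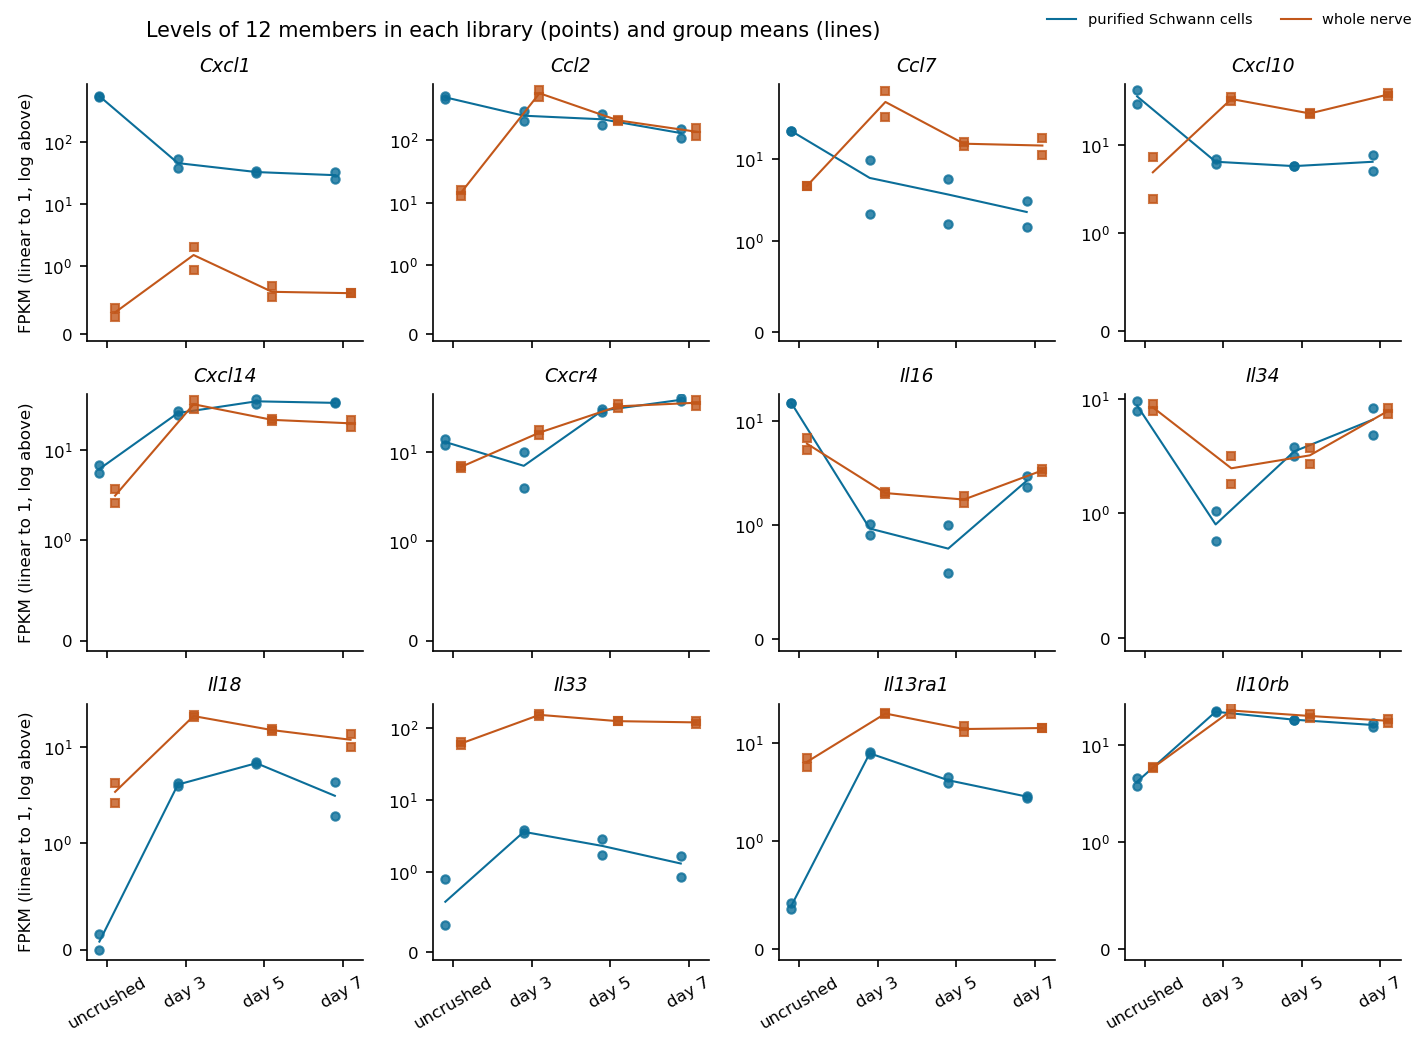
FPKM (y axis, linear to 1 and logarithmic above) of 12 members in each library by time (x axis), with points for libraries, lines through group means, blue circles for purified Schwann cells and orange squares for whole nerve. Cxcl1 is higher in Schwann cells at every time, Ccl2 and Cxcl10 fall in Schwann cells and rise in whole nerve, and Cxcr4 at day 7 and Cxcl14 at every day lie above their uncrushed libraries in both tissues.

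Cxcr4 was the one chemokine receptor expressed by Schwann cells at these depths. In Schwann cells it read 13.8 and 11.8 FPKM before crush, 3.97 and 9.95 at day 3, 27.6 and 30.03 at day 5, then 39.3 and 36.7 at day 7. The whole nerve libraries read 6.99 and 6.54 FPKM, then 15.3 and 17.4, 30.5 and 33.7, and 38.1 and 32.3. The libraries of both tissues at day 7 lay between 32.3 and 39.3 FPKM, Schwann cells after a lower day 3 and whole nerve by an increase at each day. At day 3 Schwann cells lay below whole nerve by a log2 fold change of -1.14 (SE 0.262), which was -0.66 without replicate 1 and -2.01 without replicate 2 of Schwann cells. In Schwann cells the log2 fold change was -0.79 at day 3 (adjusted p = 0.0589), 1.13 at day 5 (SE 0.302, adjusted p = 0.0101), 1.52 at day 7 (SE 0.303) and 2.31 from day 3 to day 7 (SE 0.309, adjusted p = 0.000771). In whole nerve it was 0.86, 1.83 and 1.97. Cxcl12, its ligand, was in the other cells of the nerve, as given above. The companion receptor Ackr3, which also binds Cxcl12 and takes it up, read 31.8 and 44.4 FPKM in uncrushed Schwann cells and 2.12 to 7.92 after crush (log2 fold change -3.38 at day 3, SE 0.338), and 63.9 to 121 FPKM in whole nerve with no day called. It was named after its values were seen.

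Of the 15 chemokine receptors 8 could be tested against whole nerve, Cxcr4 among them. In Schwann cells 3 were lower before crush and 7 at each day after it, where 35.3% of all genes were lower before crush and 32.8, 28.4 and 28.7% after. Ccr3 and Ccr6, with 0 counts in every Schwann cell library, and Cxcr2 and Cxcr3, with at most 7 and 2, passed the filter through whole nerve. For them a lower level followed from selection, so these counts are no result about the receptors as a class. The 7 that were not tested had too few counts. Ccr1 read 11.6 and 8.60 FPKM in whole nerve at day 3 and 2.75 to 4.74 FPKM at the other times. Cxcr2, the receptor of Cxcl1 and Cxcl2, read 1.04 to 2.46 FPKM in whole nerve with no day called, and at most 7 counts in a Schwann cell library. Ccr3 and Ccr7 had 0 counts in all Schwann cell libraries.

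Before crush 6 interleukins reached a mean of 1 FPKM in Schwann cells. They were Il16, Il34 and Il15, which fell by day 3, Il6, which was not called at day 3, Il17d, which was called at no day, and Il21, which had too few counts for the test. Il16, a chemoattractant for CD4 cells, read 15.2 and 14.96 FPKM in uncrushed Schwann cells and then 1.02 and 0.91 at day 3, 0.58 and 1.00 at day 5, then 2.97 and 2.33 at day 7. In whole nerve it read 5.24 and 6.88 FPKM, 1.98 and 2.05, 1.88 and 1.61, and 3.43 and 3.25. The groups before and after crush did not overlap in either tissue. Il16 fell in Schwann cells by 3.70 on the log2 scale at day 3 (SE 0.175, adjusted p = 2.12e-07), by 4.14 at day 5 and by 2.57 at day 7, and rose by 1.13 from day 3 to day 7 (SE 0.175, adjusted p = 0.00172). In whole nerve it fell by 2.2, 2.57 and 1.26. Il34, a second ligand of the receptor of Csf1 and so a macrophage survival factor, read 7.95 and 9.67 FPKM in uncrushed Schwann cells and then 0.77 and 1.04 at day 3, 3.78 and 3.15 at day 5, then 8.34 and 4.88 at day 7, and 7.86 and 9.15, 1.78 and 3.14, 3.72 and 2.68, and 8.41 and 7.44 FPKM in whole nerve. It fell at day 3 by 2.85 (SE 0.295) in Schwann cells and by 2.2 (SE 0.264) in whole nerve, and rose from day 3 to day 7 by a log2 fold change of 2.40 (SE 0.295) and 1.68 (SE 0.262). At day 7 it was not called against uncrushed nerve in either tissue (-0.45 and -0.52). Il15, a growth factor of natural killer and memory T cells, fell in Schwann cells from 3.32 and 4.03 FPKM to 0.29 to 1.18 after crush (log2 fold changes -2.56, -1.98 and -2.50) and read 2.43 to 4.81 FPKM in whole nerve with no day called. Without replicate 2 of day 5 its change at that day was -1.74 (adjusted p = 0.0607), and without replicate 1 of day 7 it was -3.91 at day 7. Il17d was an interleukin of the other nerve cells that fell, from 4.11 and 4.76 FPKM in uncrushed whole nerve to 1.47 and 2.07 at day 3 (log2 fold change -1.72, SE 0.333). Its values were -1.3 at day 5, not called without replicate 2 of that day (-0.95), and -1.22 at day 7, not called without replicate 2 of uncrushed nerve or either library of day 7 (-1.11 to -1.22).

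Il18 and Il33, stored cytokines of the interleukin 1 family, rose at day 3 in both tissues and were higher in whole nerve at every time. Il33 read 64.3 and 57.0 FPKM in uncrushed whole nerve, 155 and 147 at day 3 and 112 to 126 at the later days, and 0.34 to 3.80 FPKM in Schwann cells. Its log2 fold change at day 3 was 0.91 in whole nerve (SE 0.0968) and 2.57 in Schwann cells (SE 0.439, adjusted p = 0.000883). Il18 had 0 and 1 counts in uncrushed Schwann cells and 12 to 66 counts after crush (1.90 to 6.89 FPKM), and rose in whole nerve from 2.59 and 4.19 FPKM to 21.2 and 20.4 at day 3 (log2 fold change 2.25, SE 0.262). Il6, the gp130 ligand induced by injury, read 2.83 and 3.42 FPKM in uncrushed Schwann cells and then 0.52 and 2.05 at day 3 and 0.29 to 0.76 later. It fell by 3.37 at day 5 (SE 0.717, adjusted p = 0.00316) and by 2.51 at day 7, the latter not called without replicate 1 of day 7 (-2.06) or replicate 2 of uncrushed Schwann cells (-2.35). In whole nerve Il6 had 0 counts before crush, so that uncrushed Schwann cells were at least 9.10-fold higher, and then 0.50 and 5.10 FPKM at day 3. Il1b, the secreted form of interleukin 1, was called only in whole nerve (log2 fold changes 1.88 at day 3 and 1.5 at day 5, from 0.51 and 0.17 FPKM to 1.78 and 1.79 at day 3). Without replicate 1 of uncrushed whole nerve these were 2.96 and 2.59, and without replicate 2 they were 1.39 and 1.02 and not called. The day 3 call was also lost in the fit of all 16 libraries (1.94, edgeR adjusted p = 0.109). The day 5 call was also lost without either library of day 5 and with DESeq2 (adjusted p = 0.128). Il1a did not exceed 0.65 FPKM, Il10 did not exceed 8 counts and Il21 did not exceed 6 counts in any library, and none of these had enough counts for the test.

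Of 19 interleukin receptor genes tested within Schwann cells, 7 rose and 6 fell at day 3, 6 rose and 6 fell at day 5, and 3 rose and 6 fell at day 7, where 26.9% and 25.7%, 29% and 25.6%, and 25% and 21.9% of all genes did. Of 29 tested within whole nerve, 16 rose and 3 fell at day 3, 13 rose and 2 fell at day 5, and 14 rose and 2 fell at day 7, beside 23.1% and 22.5%, 18.9% and 19.5%, and 15.4% and 15.9% of all genes. Il10rb, a chain shared by receptors of the interleukin 10 family, was the highest interleukin receptor gene of Schwann cells after crush. It read 4.53 and 3.78 FPKM in uncrushed Schwann cells and then 21.5 and 22.1 at day 3, 18.0 and 18.1 at day 5, then 15.1 and 16.8 at day 7, close to the 20.8 and 24.2, 20.6 and 18.9, and 16.8 and 18.4 FPKM of whole nerve. Its log2 fold changes in Schwann cells were 2.36 (SE 0.132, adjusted p = 5.64e-07), 2.01 and 1.82, and in whole nerve 1.57 (SE 0.129), 1.38 and 1.20. Il13ra1, a chain of the receptor for interleukins 4 and 13, read 0.43 and 0.37 FPKM in uncrushed Schwann cells and then 8.07 and 7.65 at day 3, 4.48 and 3.86 at day 5, then 2.90 and 2.77 at day 7. In whole nerve it read 7.11 and 5.74 FPKM and then 20.2 and 20.0, 12.9 and 14.96, and 14.3 and 14.2. The log2 fold change at day 3 was 4.34 in Schwann cells (SE 0.188, adjusted p = 1.32e-07) and 1.23 in whole nerve (SE 0.12). Il6r, the ligand binding chain for Il6, rose from 0.34 and 0.45 FPKM in Schwann cells to 2.34 and 2.54 at day 3, 2.07 and 1.74 at day 5, then 1.52 and 2.26 at day 7 (log2 fold changes 2.63, 2.15 and 2.14), and in whole nerve was called at day 3 alone (0.59, SE 0.153). Il17ra rose in Schwann cells at days 3 and 5 (1.10 and 0.61) and in whole nerve at each day.

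Il4r and Il1r1 moved the other way. Il4r, which pairs with Il13ra1, read 2.52 and 1.98 FPKM in uncrushed Schwann cells and 1.12 to 1.76 after crush, and 1.92 and 2.00 FPKM in uncrushed whole nerve and 7.03 and 7.88 at day 3. Its log2 fold change at day 3 was -1.58 in Schwann cells (SE 0.175, adjusted p = 5.04e-05) and 1.49 in whole nerve (SE 0.149). Il4r held 283 and 201 counts in uncrushed Schwann cells and 104 and 75 in uncrushed whole nerve, where its FPKM overlapped. Folds from counts and from FPKM thus differ in size for this gene, and the cause was not tested. The chains of the interleukin 13 receptor thus changed in opposite directions within Schwann cells, Il13ra1 upward and Il4r downward at each of the 3 days. Il1r1, the signaling receptor of interleukin 1, read 0.83 and 0.87 FPKM in uncrushed Schwann cells and 0.05 to 0.28 after crush, and rose in whole nerve from 3.74 and 4.10 FPKM to 14.1 and 18.1 at day 3. The log2 fold changes were -1.58, -3.15 and -2.35 in Schwann cells and 1.57, 1.44 and 1.32 in whole nerve. The Schwann cell value at day 3 was not called without replicate 1 of uncrushed (-1.54) or of day 3 (-1.32). Its partner Il1rap, shared by receptors of the interleukin 1 family, was instead higher in Schwann cells (5.65 to 10.1 FPKM) than in whole nerve (2.16 to 4.74 FPKM) at every time, with log2 fold changes of 1.3, 0.96, 1.00 and 0.85. The value at day 7 was not called without replicate 1 of Schwann cells (0.71) or replicate 2 of whole nerve (0.63). No change of Il1rap after crush was called in either tissue, although whole nerve read 2.16 and 2.53 FPKM before crush and 4.74 and 4.70 at day 3. Il1rn rose in whole nerve from 1.00 and 0.49 FPKM to 8.93 and 8.14 at day 3 (log2 fold change 3.06, SE 0.261).

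Of the 31 interleukin receptor genes tested against whole nerve, 7 were higher and 18 lower in Schwann cells before crush (29.1% and 35.3% of all genes were), 5 and 20 at day 3 (24.5% and 32.8%), 3 and 21 at day 5 (23.2% and 28.4%), and 2 and 19 at day 7 (22.4% and 28.7%). Some of those lower passed the filter through whole nerve alone, so these counts describe the tested genes. Il17rb read 1.98 to 4.22 FPKM in Schwann cells and 1.11 to 1.96 in whole nerve, with log2 fold changes of 0.81, 0.63, 1.16 and 0.87 at the 4 times (SE 0.269, 0.25, 0.251 and 0.251). Before crush the value was 0.45 without replicate 1 of Schwann cells and was not called without either whole nerve library, the day 3 call was lost with DESeq2 and without 3 of the 4 libraries (0.37 to 0.74), and that of day 7 was lost without replicate 2 of either tissue (0.63 and 0.82). Il17rd, which restrains growth factor signaling, fell in Schwann cells from 4.08 and 3.51 FPKM to 1.87 and 1.76 at day 7 (log2 fold changes -0.73, -1.23 and -1.18), with -0.48 (adjusted p = 0.0515) at day 3 without replicate 2 of that day. Il12rb2 fell there from 3.25 and 4.88 FPKM to 1.46 and 1.62 at day 5 (-1.41, SE 0.219), and fell in whole nerve at day 3 (-1.11, SE 0.188), day 5 (-0.89) and day 7 (-0.65). The day 7 call in whole nerve was lost with DESeq2, in the fit of all 16 libraries (-0.56) and without either uncrushed library or replicate 2 of day 7 (-0.66, -0.64 and -0.51). Replicate 2 of uncrushed Schwann cells held the higher value, and without it the change in Schwann cells was -0.37 and not called at day 3 and -0.59 at day 7, in place of -0.71 and -0.94. Without that same uncrushed library its level over whole nerve before crush was 0.54 in place of 0.91. Without replicate 1 of day 3 the day 3 value was -0.60 and not called. Il3ra, a chain of the interleukin 3 receptor, read 1.77 to 3.98 FPKM in Schwann cells with no day called. Its level over whole nerve was 1.21 before crush (SE 0.317, adjusted p = 0.00408), while the calls at day 3 (0.89) and day 5 (0.84) were lost without either replicate 2 of Schwann cells or replicate 1 of whole nerve of that day, with values of 0.65 to 0.76, and at day 5 also without replicate 2 of whole nerve (0.93). Il11ra1, the receptor of interleukin 11, was higher in whole nerve (6.25 to 8.95 FPKM) than in Schwann cells (0.67 to 3.89 FPKM) and fell in both at day 3 (-1.81, SE 0.368, and -0.75, SE 0.159). Reads of Il11ra1 cannot be told apart from those of the overlapping gene Ccl27 where the records cross, nor those of Il17rb, Il17rd, Il18, Il1rn, Il34, Il6r, Ccr3, Cxcl10 and Cxcl16 from their overlapping neighbours, since the use of strand in counting is not given in the sources used here. Il1rapl1, a relative of the interleukin 1 receptor known from synapses, had 23 and 26 counts in uncrushed Schwann cells (0.52 and 0.80 FPKM) and 0 at days 3 and 7, at least 12.3-fold lower at day 3. Il2rg, the shared chain of the interleukin 2 family, read 0.36 and 0.12 FPKM in uncrushed Schwann cells (7 counts and 1 count), 1.36 and 1.3 at day 3 and 0.73 to 1.72 later, and 4.54 to 15.6 FPKM in whole nerve. It rose in Schwann cells at day 3 (log2 fold change 2.61, SE 0.661, edgeR adjusted p = 0.00811) and day 5 (2.37, SE 0.669, adjusted p = 0.0138). Without replicate 1 of uncrushed Schwann cells these values were 4.40 and 4.15, without replicate 2 the day 5 value was 1.63 and not called, and without replicate 1 of day 5 it was 1.83 and not called. By count, Il7r, Il18r1, Il18rap, Il20rb and Il17re had at most 10 counts in a Schwann cell library. Il2rb had 0 counts in uncrushed Schwann cells and at day 7, and 20 and 31 counts at day 3 and 13 and 10 at day 5, at least 5.36-fold and 2.79-fold higher.

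Counted by direction, 42 members could be tested within Schwann cells and 71 within whole nerve. In Schwann cells 12 rose and 13 fell at day 3 (background 26.9% and 25.7% of all genes tested, 52.5% in all), 10 rose and 14 fell at day 5 (background 29% and 25.6%, 54.6% in all), and 7 rose and 13 fell at day 7 (background 25% and 21.9%, 46.9% in all). Without replicate 2 the total at day 3 was 24 in place of 25. In whole nerve 40 rose and 7 fell at day 3 (background 23.1% and 22.5%, 45.6% in all), 32 and 6 at day 5 (background 18.9% and 19.5%, 38.4% in all) and 31 and 6 at day 7 (background 15.4% and 15.9%, 31.3% in all). Of the 71 members, 12 had at most 3 counts in each uncrushed library and so passed the filter through crushed libraries, and 10 of these 12 are among the 40 that rose, as against 30 of the other 59. The counts therefore describe the tested members and not the 124. From day 3 to day 7, 3 members rose and 9 fell in Schwann cells (background 10.2% and 10.7%) and 8 rose and 16 fell in whole nerve (background 9.85% and 11.4%). The members that fell at all 3 days in Schwann cells were 12, namely Ccl2, Ccl7, Cxcl1, Cxcl10, Il11ra1, Il12rb2, Il15, Il16, Il17rd, Il1r1, Il1rapl1 and Il4r. Those that rose at all 3 days were 5, namely Cxcl14, Il10rb, Il13ra1, Il18 and Il6r. Of all genes 16.3% fell and 18.6% rose at all 3 days. In whole nerve 29 members rose and 5 fell at all 3 days, beside 10.8% and 11.3% of all genes, and in the fit of all 16 libraries 25 of these 29 and 3 of these 5 kept their call at all 3 days. Those that did not were Ccl3, Ccl5, Ccl7 and Il2rg among the 29 and Cxcl12 and Il12rb2 among the 5.

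Whether the effect of crush differed between the tissues was tested by the interaction of tissue and day. At day 3, 7 members had a more positive change in Schwann cells and 15 a more negative one (background 12.3% and 13.7%), at day 5 these were 4 and 12 (background 12.6% and 14.9%), and at day 7 they were 3 and 12 (background 11.6% and 14.4%). The difference for Ccl2 was -5.94 on the log2 scale at day 3 (SE 0.363, adjusted p = 7.02e-08), -4.78 at day 5 and -4.92 at day 7. Cxcl10 differed by -4.77 (SE 0.429), Ccl7 by -4.87 (SE 0.796), Il1r1 by -3.21 (SE 0.313) and Il4r by -3.17 (SE 0.221) at day 3. On the positive side stood Il13ra1 at 3.01 (SE 0.226, adjusted p = 4.01e-07), Il6r at 1.94 (SE 0.301), Il33 at 1.55 (SE 0.391) and Il10rb at 0.69 (SE 0.175). Il34 and Il1rap differed at no day. The same uncrushed libraries enter every one of these differences and every comparison of a day with uncrushed. Of the 18 immediate-early genes, 0 had a more positive change in Schwann cells at day 3 and 13 a more negative one (median -2.96), and their part in the differences of the members was not tested. The difference for Il33 at day 3 was 1.07 (adjusted p = 0.064) without replicate 2 of uncrushed Schwann cells and 2.40 without replicate 1.

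**Figure D5:**
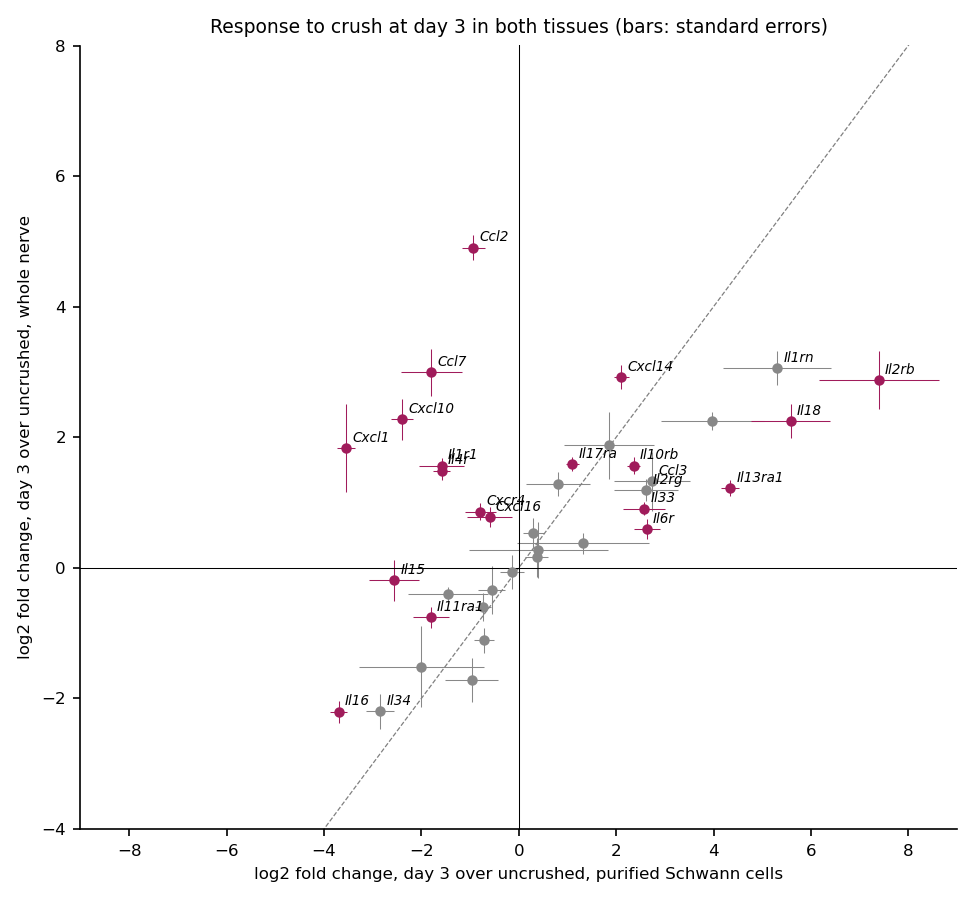
Log2 fold change at day 3 post-crush against uncrushed in purified Schwann cells (x axis) and whole nerve (y axis) for the 37 members tested in both, with standard errors as bars, equality as the dashed line and the 19 members whose difference between tissues was called in purple (others grey). Ccl2, Ccl7, Cxcl10, Il4r and Il1r1 lie at the upper left, higher after crush in whole nerve and lower in Schwann cells, and Il13ra1 and Il6r lie to the right of the dashed line.

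The genes around these pathways that the symbol rule leaves out were described by lists. Of 13 related chemokine genes, 11 could be tested against whole nerve, and 0 were higher and 8 to 10 lower in Schwann cells at each time, where 22.4 to 29.1% and 28.4 to 35.3% of all genes were. Of 10 genes of gp130 cytokines and their receptors, 3 rose and 4 fell in Schwann cells at day 3 among 9 tested (26.9% and 25.7% of all genes did), and 5 rose and 4 fell in whole nerve (23.1% and 22.5% of all genes). Clcf1, a secreted ligand of this receptor family named after its values were seen, read 1.5 and 1.24 FPKM in uncrushed Schwann cells and 15.6 and 14.6 at day 3 (log2 fold change 3.51, SE 0.2), against 3.6 and 4.20 FPKM in whole nerve at day 3. Il6st, the gp130 chain itself, read 107 to 170.0 FPKM in Schwann cells and 52.5 to 122 in whole nerve. Of 25 genes that carry the signal below interleukin receptors, 3 rose and 12 fell in Schwann cells at day 3 among 23 tested (26.9% and 25.7% of all genes did). In whole nerve 7 rose and 2 fell among 24 (23.1% and 22.5% of all genes). Socs3, a feedback inhibitor of Stat3 signaling also chosen after its values were seen, read 153 and 169 FPKM in uncrushed Schwann cells and 18.4 and 16.9 at day 3, and 0.68 and 0.92 FPKM in uncrushed whole nerve. Of 8 genes of interleukin processing and soluble inhibitors, 0 were higher and 5 of 6 tested were lower in Schwann cells at day 3 against whole nerve (24.5% and 32.8% of all genes). Of 15 other inflammatory cytokines and receptors, 1 was higher and 9 of 10 tested were lower at day 3 (24.5% and 32.8% of all genes), and 9 of 10 tested rose in whole nerve, where 23.1% of all genes did.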

How the data were processed

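RNA from 16 samples was made into amplified cDNA without molecular identifiers and sequenced as paired-end reads. Reads were aligned by the authors to Rnor_6.0 with STAR, gene levels were estimated with RSEM, and the deposited files give expected counts that are not normalized, FPKM and TPM for each library. A joined table of the same counts and a table of the authors' module numbers were not used. Levels are printed as the deposited FPKM, whose sum differs between the tissues, so tissues were compared by fold changes from counts. The deposited TPM served as an alternative scale for levels.

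Expected counts were rounded and tested in edgeR 4.0.16 (R 4.3.3) by the quasi-likelihood test after TMM scaling and filterByExpr, with Benjamini-Hochberg adjustment over all genes tested and a threshold of 0.05. The 8 Schwann cell libraries gave 14961 genes, the 8 whole nerve libraries 15831 and all 16 libraries, used for comparisons between tissues and for the interaction, 16829. Positive values mean higher after crush, or higher in Schwann cells. Each SE was taken from the F statistic, as the size of the log2 fold change over the root of F. Where every library of a group had 0 counts, the fold is a lower bound against a floor of 3 counts per library, which covers counting error only. DESeq2 1.42.0, other scalings, filters, sample sets and each library left out were the alternatives. The fit was also run on simulated counts with known changes, and no result here rests on that run.

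Members follow the symbol rule. Named were members at a mean of 1 FPKM or more in a Schwann cell group, the 5 highest of each role in whole nerve, the 5 largest and 5 smallest called changes of each comparison, and a set known from nerve injury (Il1a, Il1b, Il6, Il10, Il33, Il34, Ccl2, Ccl3, Cxcl12, Cxcr4, Il1rn, Il1r1 and Il6r). Other members named for counts at or near 0, and genes outside the rule, were chosen after their values were seen. Values of 2 genes are not reported here. Members, gene lists and tests were chosen with earlier results of these data known. Replicates of every group differed by more than sampling noise (chi-square per degree of freedom 8.06 to 27.7). Promoter sequences came from RefSeq (GRCr8), which held 94 of the 124 members. That build is not the one of the files, and no coordinate of the files was used with it. Python 3.11.15 with pandas 2.3.3, numpy 2.4.6 and matplotlib 3.10.9 made the summaries and plots.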

Additional observations from a re-analysis of the deposited data

Results flagged for a closer look

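These results drew attention because the change after crush in Schwann cells differed from that in whole nerve, by edgeR's test of the interaction of tissue and day. All values are differences of log2 fold changes, Schwann cells minus whole nerve, and no explanation was weighed. Members with every group above the floor of 3 counts numbered 16 at day 3, 11 at day 5 and 12 at day 7, and a further 6, 5 and 3 members with a group at the floor are given no value.

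Of the 26 chemokine ligands tested, 7 had a more negative change in Schwann cells at day 3 and 6 at each of days 5 and 7, and 0 a more positive one, beside 13.7%, 14.9% and 14.4% of all genes for the negative side. Ccl2 differed by -5.94, -4.78 and -4.92 at days 3, 5 and 7, Ccl7 by -4.87, -4.0 and -4.73, Cxcl10 by -4.77, -4.50 and -5.08 and Cxcl16 by -1.47, -1.74 and -2.50. Cxcl14 differed at day 3 alone by -0.92, a call lost without replicate 2 of uncrushed Schwann cells (-0.73), of uncrushed whole nerve (-0.70) or of whole nerve at day 3 (-0.75). The receptor Cxcr4 differed at day 3 by -1.75.

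Among interleukins, Il16 differed by -1.60, -1.70 and -1.43 at the 3 days. Il15 differed by -2.47 at day 3 and -2.59 at day 7, the latter -4.04 without replicate 1 of Schwann cells at day 7. Il33 differed by 1.55 at day 3.

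Receptor genes were called in both directions. Il1r1 differed by -3.21, -4.70 and -3.75 and Il4r by -3.17, -2.31 and -1.85, while Il13ra1 differed by 3.01, 2.52 and 1.93 and Il6r by 1.94, 1.88 and 1.83. Il17rd differed by -1.36 at day 5 and -1.56 at day 7, and Il17ra by -0.59 at day 3 and -0.81 at day 7. Il11ra1 differed by -1.14 at day 3, a value of -0.79 and not called without replicate 1 of Schwann cells at day 3 and of -1.77 without replicate 2. That call was lost without any 1 of 6 of the 8 libraries compared. Il10rb differed by 0.69 at day 3 and 0.50 at day 5. The day 5 call for Il10rb was lost without 7 of the 8 libraries compared, and the day 3 call for Il17ra without 5 of its 8.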

How the results depend on the processing

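Members called from day 3 to day 7 depended most on the processing. In Schwann cells they numbered 12, and 6 to 12 when 1 library was left out, with 7 without replicate 2 of day 3 and 6 without replicate 1 of day 7. In whole nerve they numbered 24, with 14 in a fit of all 16 libraries, 9 when at least a 2-fold change was asked for as well, and 14 to 18 when 1 library was left out (15 without replicate 1 and 14 without replicate 2 of day 3, and 15 without replicate 2 of day 7). For the difference between tissues at day 7 the count was 15, and 23 with no filter on low counts. The causes were not tested. The other 214 recomputed counts lay within 1.5 times the main ones. Of the recomputed values of named members, 2104 kept their direction and their side of the threshold, 115 lost a call and 0 reversed. Upper quartile scaling moved the median of all genes for Schwann cells over whole nerve at day 5 from -0.03 to 0.11.

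With the replicate number as a block the counts were 25, 24, 18 and 12 in Schwann cells for days 3, 5 and 7 and from day 3 to day 7, and 46, 37, 38 and 25 in whole nerve. Between tissues the block gave 52, 58, 56 and 51 from uncrushed to day 7, and 22, 16 and 15 for the difference in the change after crush. The block lost the calls for Il17rb between tissues at day 3 (edgeR adjusted p = 0.0526), Il1b in whole nerve at day 5 (0.0558) and the difference for Il10rb at day 5 (0.0545). Deviations of equal numbers correlated by -0.0552 to 0.0758 between groups. A weak correlation over genes cannot show whether equal numbers share an operation or dissection, so whether the numbers pair the samples was not settled. Over all genes the block gave 7351 calls in place of 7212 in whole nerve at day 3, and 7657 in place of 7860 in Schwann cells.

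With 2 libraries a group, an exact permutation test cannot go below p = 0.333, so calls rest on a spread shared over genes. Members with few counts in Schwann cells could not be tested there, and a count of 0 limits a level without showing that it is absent. Leaving out 1 library of a pair assumes that the remaining one varies like the other groups.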
